A study of Mus musculus with 12 samples.

Results

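The 9 genes described here, Spi1, Maf, Irf8, Cebpa, Cebpb, Mef2c, Mef2a, Runx1 and Spic, encode transcription factors that set the macrophage lineage or the identity of macrophages in a tissue. They were chosen by that function, with earlier results of these data known, and are 9 of the 56735 gene names in the count table. All 9 were counted in every library and passed the filter on low counts, which left 13724 genes for testing. Bulk RNA-seq measured their RNA in sorted CD206+ macrophages at the borders of the mouse brain (subdural CAMs, or sdCAMs), which lie in the leptomeninges and around vessels. The choroid plexuses had been taken out before sorting. The 12 libraries form 3 groups of 4.

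All mice were young adults of the genotype Mrc1CreERT2/CreERT2:R26tdT/tdT, which places a tamoxifen-inducible Cre at both alleles of Mrc1 (the gene of CD206) and at Rosa26 a tdTomato (tdT) reporter that Cre switches on, and all received tamoxifen. Since Mrc1 drives the Cre, tdT marks cells that expressed CD206 at the time of tamoxifen and their progeny, and a tdT- cell carries no such mark, for whatever reason. After 4 weeks, mice were given vehicle or BLZ945, an inhibitor of the CSF-1 receptor that depletes macrophages, at 200 mg/kg for 7 days. Cells were sorted 8 weeks after that treatment. The groups are tdT+ cells of vehicle mice, tdT+ cells of BLZ945 mice and tdT- cells of BLZ945 mice. Mice carry the labels F1, F2, M1 and M2. Each BLZ945 mouse gave a tdT+ and a tdT- library under 1 label, whereas the vehicle mice are other animals.

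Macrophages are specified by layers of transcription factors. PU.1, encoded by Spi1, opens enhancers across the myeloid lineage together with RUNX and C/EBP factors. Partners such as IRF8, the large MAF proteins and the MEF2 proteins then select the programme of a monocyte, a microglia or another tissue macrophage.

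Libraries held between 19969308 and 23395058 counts, and a floor of 3 counts corresponded to at most 3.16 normalised counts (counts divided by the size factor of the library). All 11 markers of CD206+ border macrophages were detected in each group, although Mrc1 itself lay between 2232 and 3882 normalised counts in tdT- libraries and between 6012 and 12341 in tdT+ libraries. No count was found for tdTomato in any of the 12 libraries (0 in each). A gene annotation without a tdTomato entry would give the same 0, so the sort could not be checked on the reporter. Libraries stood apart or went against a label at points that include the following. The tdT- library F2 held 422981 normalised counts over 7 neutrophil markers, where no other library exceeded 69.4. It was also highest over 5 red blood cell markers, at 36171, where no other library exceeded 15807. The BLZ945 tdT+ library F1 held 8241 normalised counts over 6 markers of neural cells, where no other library exceeded 3746. The vehicle library F2 held 111 normalised counts of the Y-linked gene Kdm5d, but 0 counts of Ddx3y, Eif2s3y and Uty and 1246 normalised counts of Xist. Mitochondrial genes took between 0.702% and 1.13% of counts in vehicle libraries, between 0.515% and 0.589% in BLZ945 tdT+ and between 0.324% and 0.631% in tdT- libraries. The part of these differences in the results below was not tested.

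Scaled for exon length and library total (RPKM), the levels of the 9 genes spanned more than an order of magnitude. The median RPKM over 12 libraries was 147 for Spi1, 130 for Maf, 109 for Cebpb and 56.1 for Irf8. It was 30.1 for Mef2c, 27.5 for Cebpa, 17.7 for Mef2a, 7.26 for Runx1 and 5.97 for Spic. By its mean on this scale Spi1 stood at the percentile 97.7 of all genes tested and Spic at 60.7. The order of neighbours was not fixed, because the RPKM ranges overlapped for Spi1 (119 to 165) and Maf (64.6 to 161), for Mef2c (22.5 to 38.7) and Cebpa (21.7 to 33.9), and for Runx1 (4.24 to 9.87) and Spic (0.974 to 11.8). In tdT- cells Maf averaged 80.5 ± 11.2 RPKM (SD, n = 4) and lay below Cebpb at 125 ± 38.7, whereas in vehicle tdT+ cells Maf was at 155 ± 8.94 and Cebpb at 98.8 ± 6.79.

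**Figure D1:**
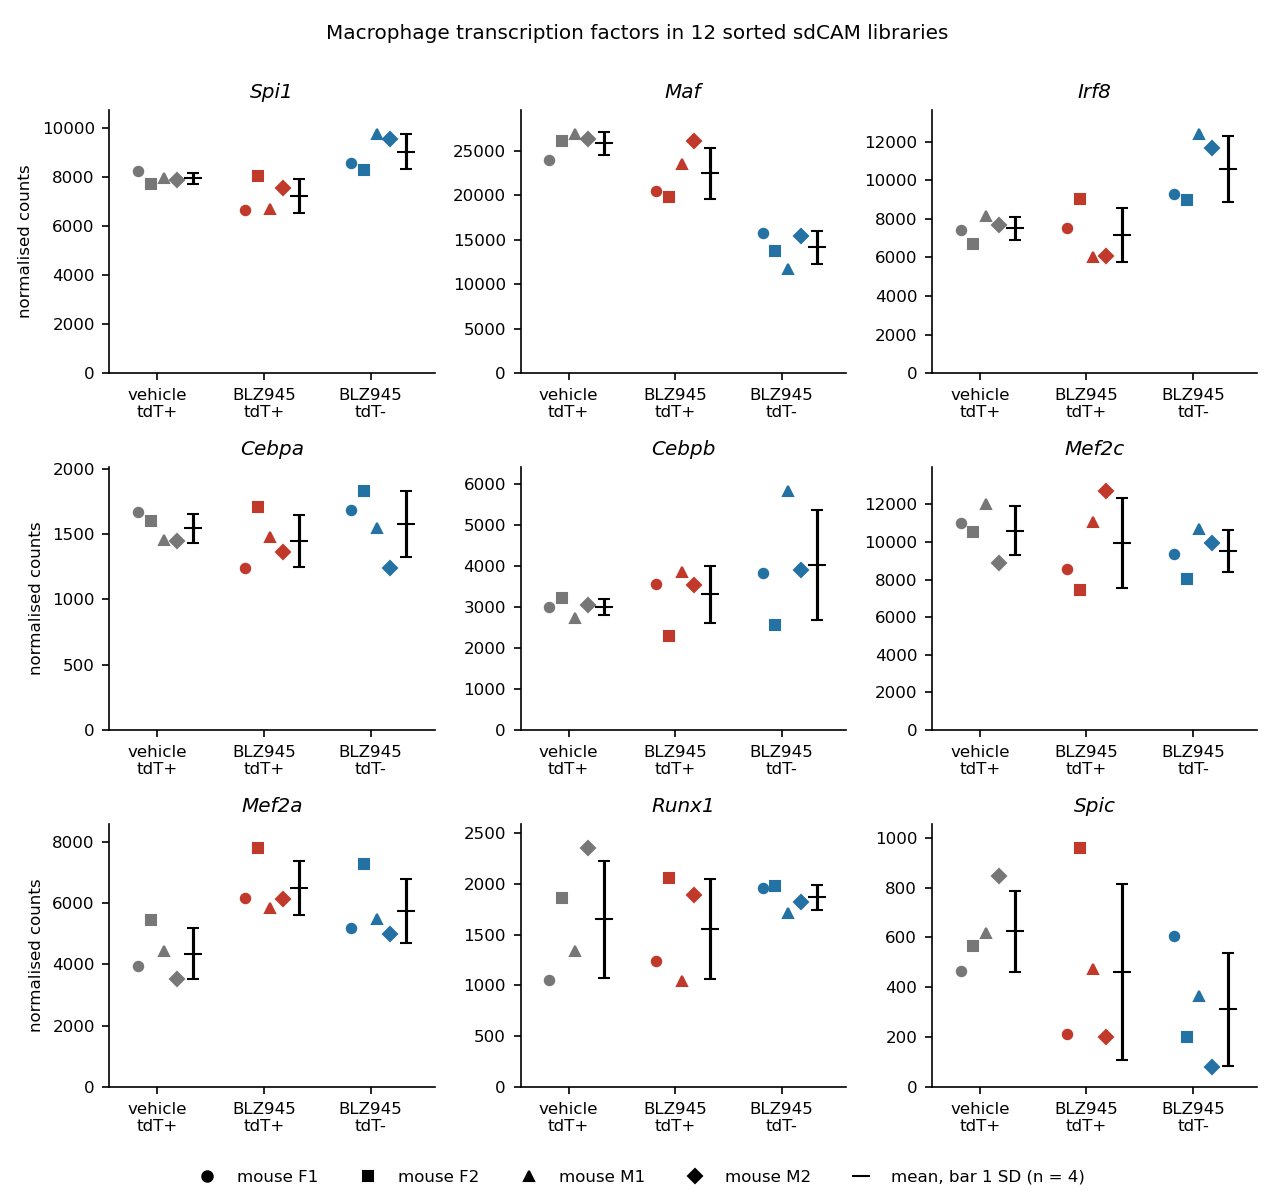
Normalised counts of the 9 transcription factor genes in vehicle tdT+, BLZ945 tdT+ and BLZ945 tdT- libraries. Each point is a library, its shape gives the mouse label, and the black mark gives the mean with a bar of 1 SD (n = 4); Maf is lowest in the 4 tdT- libraries, and the 4 tdT- libraries of Irf8 lie above the 4 vehicle libraries.

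Before the comparisons, the promoters of 2 of the genes are shown, because Irf8 is the gene that rose in tdT- cells against both tdT+ groups in DESeq2 and Mef2a is the one of the 9 that differed most between the tdT+ groups. RefSeq promoter sequences of the build GRCm38.p6 matched 7 of the 9 genes (not Spi1 and Maf) with 11 promoters of 300 bases. The count table uses GRCm39, so these coordinates are not those of the table. Capitals mark the letters of the motifs searched, on either strand. These were GAGGAA (a PU box, bound by PU.1 and its relatives), TTCNNNGAA (the interferon-gamma activated site of STAT factors), TTGCNNAA (C/EBP), GAAANNGAA (a repeat bound by IRF proteins), TGTGGT (RUNX) and TGCTGA (a part of the MAF site). The sequence of Irf8 (chr8:120736108-120736407, plus strand) and that of Mef2a (chr7:67372809-67373108, minus strand) run 5′ to 3′.
Irf8: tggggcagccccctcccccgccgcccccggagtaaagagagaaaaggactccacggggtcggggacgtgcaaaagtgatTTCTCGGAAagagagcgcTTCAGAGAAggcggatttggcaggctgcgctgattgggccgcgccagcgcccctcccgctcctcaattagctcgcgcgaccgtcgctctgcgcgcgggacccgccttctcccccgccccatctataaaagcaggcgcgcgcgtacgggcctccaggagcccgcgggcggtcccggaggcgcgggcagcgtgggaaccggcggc
Mef2a: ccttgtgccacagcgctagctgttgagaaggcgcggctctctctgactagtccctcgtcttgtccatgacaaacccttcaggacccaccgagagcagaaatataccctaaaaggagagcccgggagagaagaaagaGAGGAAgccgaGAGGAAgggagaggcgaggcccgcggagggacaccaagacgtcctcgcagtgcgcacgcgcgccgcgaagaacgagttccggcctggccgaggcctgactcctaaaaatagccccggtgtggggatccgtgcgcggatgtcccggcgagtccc

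The Irf8 promoter holds 2 matches to TTCNNNGAA, and the Mef2a promoter holds 2 matches to GAGGAA. Of 32851 promoters of the same length, 8.30% hold TTCNNNGAA and 28.3% hold GAGGAA. The other motifs occur in 10.8% (TTGCNNAA), 8.56% (GAAANNGAA), 16.8% (TGTGGT) and 19.5% (TGCTGA) of all promoters. Of the promoters not shown, the first of Runx1 held 2 matches to TGTGGT. The PU box was found in promoters of Mef2c and Runx1, the STAT site in Mef2c and the MAF letters in promoters of Irf8, Mef2c and Spic, while those of Cebpa and Cebpb held 0 matches to any motif. A match describes letters only and is no evidence of binding.

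The first question was whether marked and unmarked cells from the same treated animals differ. In tdT- cells Maf was lower, and Irf8 and Spi1 were higher by DESeq2, while Cebpa, Cebpb, Mef2c, Mef2a, Runx1 and Spic did not pass the test. Of the 9 genes, 3 were called at an adjusted p of at most 0.05, beside 6.38% of all genes tested. None of the 9 was a differentially expressed gene (DEG), which also needs a shrunken log2 fold change of 1 or more in either direction, as 2.25% of all genes were. With the quasi-likelihood test of edgeR 1 of 9 was called, Maf, beside 2.75% of all genes. The groups did not overlap for 2 of 9 genes, Maf and Spi1, beside 9.35% of all genes. The median log2 fold change of the 9 genes was 0.13 and that of all genes 0.00.

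Maf (GRCm39 chr8:116409681-116434533, minus strand) encodes c-MAF, a large MAF protein of resident macrophages. Its normalised counts were 23976, 26157, 26902 and 26334 in vehicle mice F1, F2, M1 and M2. They were 20467, 19752, 23482 and 26090.2 in BLZ945 tdT+ cells and 15700.3, 13725, 11676 and 15410.3 in the tdT- cells of the same 4 mice. Every tdT- library lay below every tdT+ library of either treatment. Maf fell in tdT- cells by 0.67 ± 0.11 on the log2 scale (SE) against BLZ945 tdT+ cells, with an adjusted p of 4.14e-07 in DESeq2 and 0.00509 in edgeR. With the mouse as a replicate block the DESeq2 adjusted p was 1.56e-05. Within each mouse the difference was -0.38 in F1, -0.53 in F2, -1.01 in M1 and -0.76 in M2, so that Maf was lower in tdT- cells in 4 of 4 mice. Without the tdT- library F2 the fall was 0.66 (DESeq2 adjusted p = 7.27e-06).

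**Figure D2:**
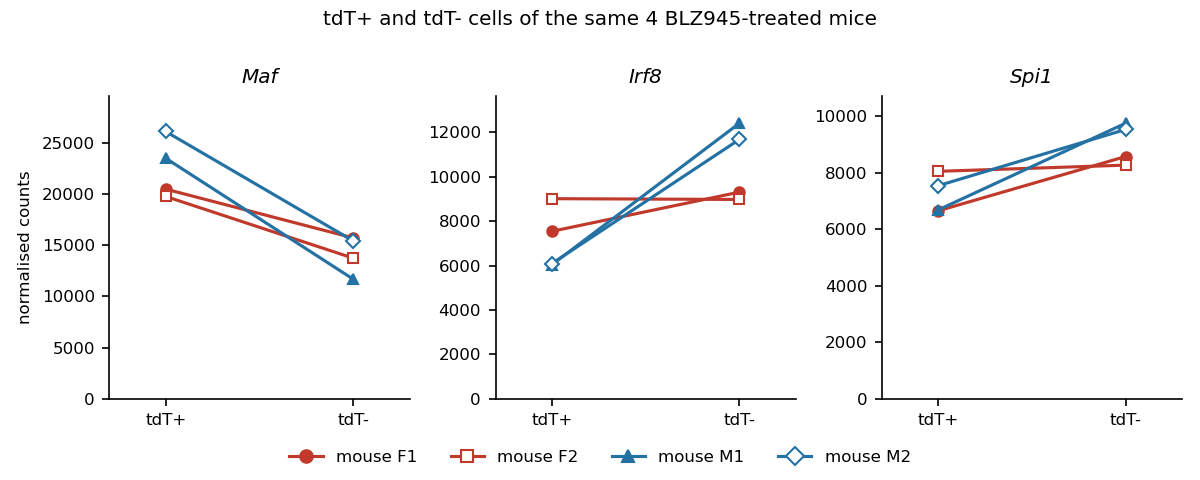
Normalised counts of Maf, Irf8 and Spi1 in the tdT+ and tdT- cells of the same BLZ945-treated mouse, with 1 line for each of the 4 mice. Maf falls along all 4 lines, while the line of Irf8 in mouse F2 is flat (9017 and 8982).

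Irf8 (chr8:121463097-121483433, plus strand) encodes a partner of PU.1 that is needed for monocytes and microglia. Normalised counts were 7454, 6719.6, 8169.6 and 7707 in vehicle libraries and 7547, 9017, 6042 and 6093 in BLZ945 tdT+ libraries. In tdT- libraries they were 9313, 8982, 12419 and 11689. The tdT- libraries lay above all vehicle libraries, whereas the tdT+ library F2 of BLZ945 mice overlapped with them. The rise against BLZ945 tdT+ cells was 0.56 ± 0.15 (DESeq2 adjusted p = 0.00624), but edgeR gave an adjusted p of 0.0769 and the replicate block in DESeq2 one of 0.0553. It was carried by mice M1 and M2, with within-mouse differences of 1.04 and 0.94, beside 0.30 in F1 and -0.01 in F2. Without the tdT+ library M1 the DESeq2 adjusted p was 0.0528, with a log2 fold change of 0.49, and without the tdT- library F2 the value was 0.63 (adjusted p = 0.00199 in DESeq2).

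Spi1 (chr2:90912735-90946101, plus strand) encodes PU.1, and its counts were the least variable of the 9 in vehicle mice, with a coefficient of variation of 2.90%. Normalised counts were 8245, 7698, 7972 and 7861 in vehicle libraries, 6648, 8046, 6679.7 and 7537 in BLZ945 tdT+ libraries and 8570.5, 8265, 9749.7 and 9528 in tdT- libraries. The 4 tdT- libraries lay above the other 8, although the lowest of them, 8265, was close to the vehicle library F1 at 8245. The rise against BLZ945 tdT+ cells was 0.32 ± 0.09 (adjusted p = 0.0143 in DESeq2, 0.140 in edgeR). The call was lost with the replicate block (adjusted p = 0.104 in DESeq2) and, in DESeq2, with only the 8 libraries compared (0.0652). It was also lost without the tdT+ library F1 (adjusted p = 0.0885 in DESeq2), the tdT+ library M1 (0.0911), the tdT- library M1 (0.0602) or the tdT- library M2 (0.0716).

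Markers of microglia also differed between the groups. All 6 markers were above 0 in each group, and their summed normalised counts lay between 39830 and 53683 in vehicle libraries, between 54340 and 63888 in BLZ945 tdT+ libraries and between 120069 and 255671 in tdT- libraries. In tdT- cells the sum was 120069 in F1, 128503 in F2, 255671 in M1 and 176290 in M2. M1 was highest in the marker sum and in Irf8 and lowest in Maf among the tdT- libraries. M2, next in the sum, was also next in Irf8 (11689) and Spi1 (9528), where M1 was highest too (9749.7). In both genes F1 lay above F2, unlike in the sum. For Maf the order was not shared either, since M2 held 15410.3 normalised counts, while F2 held 13725. Between vehicle and BLZ945 tdT+ libraries the sum rose without overlap, but not every marker did. In vehicle libraries P2ry12 spanned 13222 to 18013, below BLZ945 tdT+. Tmem119 (2373 to 5534) and Sall1 (160 to 320) overlapped with the BLZ945 tdT+ ranges given below, as did Gpr34 (16466 to 19700, beside 15229 to 20965). Irf8 and Spi1 had log2 fold changes of -0.07 and -0.14 between these groups. The defining microglia genes Tmem119, P2ry12 and Sall1 spanned 19938 to 43862, 42296 to 106728 and 1455 to 3081 normalised counts in tdT- libraries. In BLZ945 tdT+ libraries they spanned 4668 to 7892, 20588 to 23925 and 219 to 770. The 11 markers of CD206+ border macrophages summed to between 1089000 and 1183860 normalised counts in vehicle, between 1283560 and 1447210 in BLZ945 tdT+ and between 787680 and 1047850 in tdT- libraries, and these ranges did not overlap. Apoe was the largest part of this sum (564416 to 762029 in tdT- libraries), and not every marker followed it. Clec12a overlapped between all groups (5301 to 8689 in tdT-), and Pf4 was lower in BLZ945 tdT+ (26163 to 36756) than in vehicle libraries (41990 to 47744). In bulk samples a change in the share of a cell type and a change of RNA per cell cannot be told apart, and the part of either set of markers in the values of Maf, Irf8 and Spi1 was not tested.

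**Figure D3:**
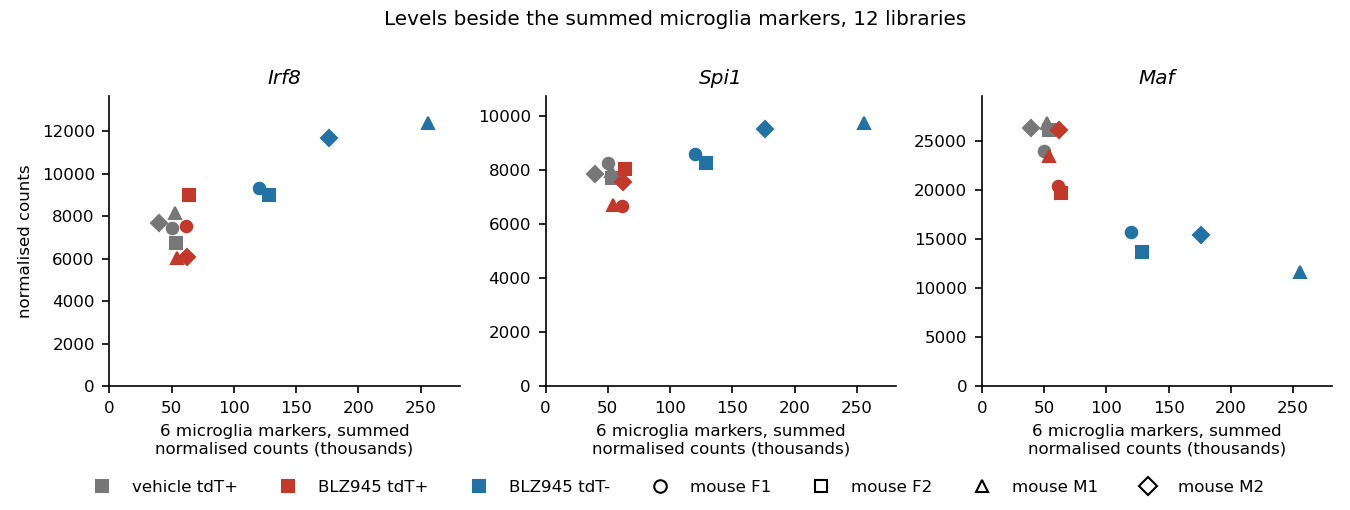
Normalised counts of Irf8, Spi1 and Maf (vertical) against the summed normalised counts of 6 microglia markers (horizontal, axis in multiples of 1e+03), with 1 point for each of 12 libraries, coloured by group and shaped by mouse label. The 4 tdT- libraries lie at 120069 or above on the marker sum and the 8 tdT+ libraries at 63888 or below. The tdT- library of mouse M1 is highest in Irf8 and Spi1 and lowest in Maf. That of M2, next on the marker sum, is also next in Irf8 (11689) and Spi1 (9528), but lies at 15410.3 in Maf, above F2 at 13725.

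The remaining genes did not pass the test between tdT- and tdT+ cells of BLZ945 mice. The C/EBP genes act in myeloid progenitors (Cebpa) and in monocytes and activated macrophages (Cebpb). Cebpa had a log2 fold change of 0.13 (95% interval -0.21 to 0.46) and Cebpb one of 0.28 (-0.17 to 0.73). Mef2c, a MEF2 factor of microglia, had -0.06 (-0.38 to 0.26) and its relative Mef2a -0.18 (-0.51 to 0.15). Runx1, a regulator of definitive haematopoiesis, had 0.26 (-0.29 to 0.81), so that a change of up to 0.81 is within its interval. Spic, which drives iron-recycling macrophages, had -0.56 (-1.75 to 0.62), and was lower in tdT- cells in 3 of 4 mice and higher in F1.

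The second question was whether marked cells in treated mice differ from marked cells in mice given vehicle. None of the 9 genes passed the test, beside 0.955% of all genes in DESeq2 and 0.0656% in edgeR, and none was a DEG, beside 0.168%. Before adjustment, Mef2a had the lowest p of the 9 genes (6.54e-04 in DESeq2, 0.00383 in edgeR). The groups did not overlap for 1 gene, also Mef2a, beside 6.72% of all genes. The median log2 fold change was -0.09 over the 9 genes and 0.03 over all genes. Vehicle and BLZ945 libraries also carry different name stems, and any effect of handling that goes with these cannot be told apart from treatment.

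Mef2a (chr7:66880911-67022606, minus strand) encodes a MADS-box factor that binds the same sites as MEF2C. Normalised counts were 3960.0, 5457, 4451 and 3516 in vehicle libraries and 6153, 7801, 5848 and 6149 in BLZ945 tdT+ libraries. In tdT- libraries they were 5203, 7279, 5482 and 4983, between the other groups and overlapping with both. The difference between the tdT+ groups was 0.58 ± 0.17 on the log2 scale, with an adjusted p of 0.0603 in DESeq2 and 0.365 in edgeR. Library F2 was highest in each group. Without the vehicle library F2, which held the Kdm5d counts, the log2 fold change was 0.71 and the DESeq2 adjusted p 0.00365. Leaving out any other library gave no call. The log2 fold change was 0.48 without the BLZ945 tdT+ library F2 (DESeq2 adjusted p = 0.270) and 0.49 without the vehicle library M2 (0.244). Exons of Mef2a overlap those of Lysmd4 on the opposite strand over 302 bases, and the counting did not use strand. Lysmd4 held a mean of 170 counts, and how reads from these bases were counted was not tested.

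Mef2c (chr13:83652153-83815199, plus strand) did not differ in the same way. Its normalised counts were 10999.8, 10524, 12029.7 and 8902 in vehicle libraries, 8568, 7472, 11058 and 12722 in BLZ945 tdT+ libraries and 9385, 8058, 10697 and 9944 in tdT- libraries. All 3 groups overlapped, and the log2 fold change of BLZ945 tdT+ against vehicle cells was -0.09 (95% interval -0.41 to 0.23). The log2 ratio of Mef2a to Mef2c counts was -1.30 ± 0.24 in vehicle, -0.60 ± 0.50 in BLZ945 tdT+ and -0.74 ± 0.40 in tdT- libraries, and the ranges of the 3 groups overlapped.

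Maf, Irf8 and Spi1 had log2 fold changes of -0.20 (95% interval -0.43 to 0.02), -0.07 (-0.37 to 0.23) and -0.14 (-0.32 to 0.05) between the tdT+ groups. None of these passed the test (DESeq2 adjusted p of 0.728 for Maf and 0.888 for Spi1, and above that for Irf8). Maf in BLZ945 tdT+ libraries overlapped with vehicle through M2, at 26090.2 normalised counts, while the other 3 lay below all vehicle libraries.

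**Figure D4:**
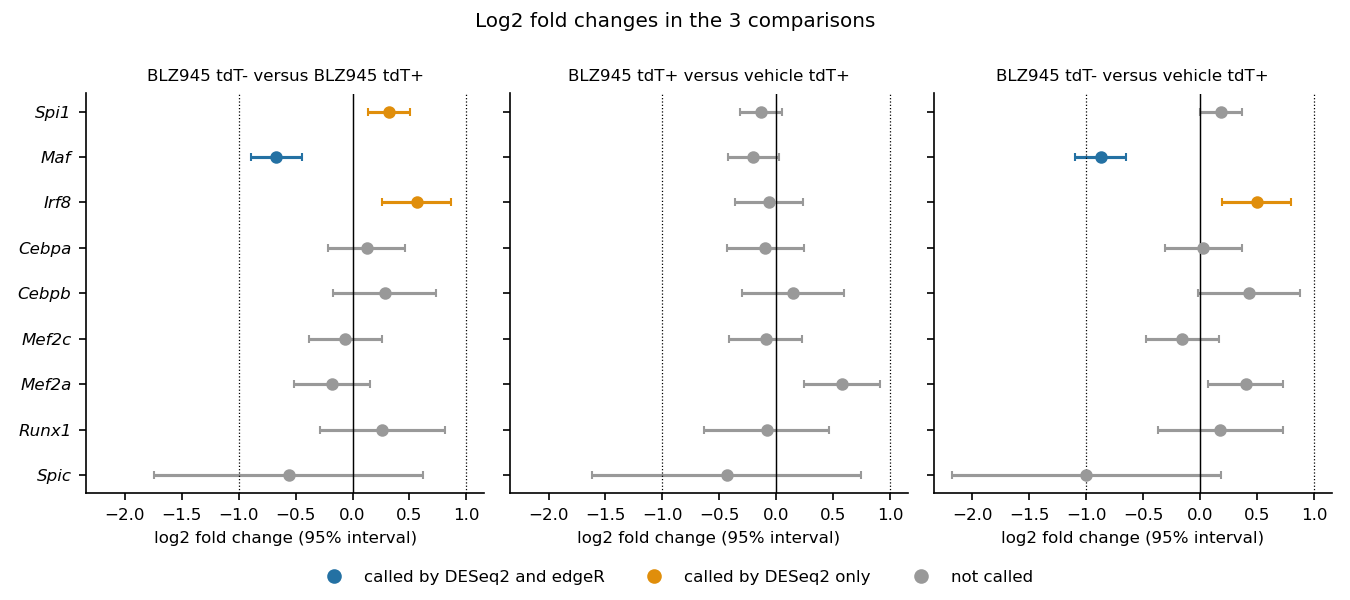
Log2 fold changes (horizontal) of the 9 genes with 95% intervals in the 3 comparisons, from DESeq2 on all 12 libraries; dotted lines mark a change of 1 in either direction. Maf at -0.67 and -0.87 is called by DESeq2 and edgeR, Irf8 at 0.56 and 0.50 and Spi1 at 0.32 by DESeq2 only, and Mef2a at 0.58 is not called.

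The last comparison sets the unmarked cells of treated mice against the marked cells of vehicle mice. It shares the tdT- libraries with the first comparison and the vehicle libraries with the preceding one, so its values are no replication. Of the 9 genes 2 were called, Maf and Irf8, beside 6.76% of all genes. None was a DEG, beside 2.55%, and edgeR called Maf alone, beside 3.25%. The groups did not overlap for 3 of 9 genes, Spi1, Maf and Irf8, beside 9.70% of all genes. The median log2 fold change was 0.18 over the 9 genes and 0.03 over all genes.

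Maf fell by 0.87 ± 0.11 against vehicle (adjusted p = 3.98e-12 in DESeq2, 6.91e-04 in edgeR). Irf8 rose by 0.50 ± 0.15 (adjusted p = 0.0220 in DESeq2, 0.131 in edgeR). This call was lost in DESeq2 without the vehicle library F1 (adjusted p = 0.0667), F2 (0.102) or M2 (0.0558) and without the tdT- library M1 (0.106) or M2 (0.0934). Spi1 had a log2 fold change of 0.18 (95% interval 0.00 to 0.37) and a DESeq2 adjusted p of 0.305. Mef2a had 0.40 ± 0.17 and an adjusted p of 0.165 in DESeq2. The summed microglia markers, given above, did not overlap between these groups either.

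Cebpb (chr2:167530835-167532338, plus strand) had 2994, 3219, 2741 and 3044 normalised counts in vehicle libraries. It had 3556, 2301, 3870.0 and 3546 in BLZ945 tdT+ libraries and 3823, 2574, 5839 and 3896 in tdT- libraries. Mouse F2 was lowest in both populations of BLZ945 mice and lay below all vehicle libraries, whereas the other 3 libraries of each BLZ945 group lay above them. The log2 fold change of tdT- against vehicle cells was 0.43 (95% interval -0.02 to 0.88, adjusted p = 0.346 in DESeq2). It was 0.59 without the tdT- library F2 (adjusted p = 0.0543 in DESeq2) and 0.19 without the tdT- library M1 (0.777). The spread differed between groups, with a coefficient of variation of 6.58% in vehicle, 20.9% in BLZ945 tdT+ and 33.4% in tdT- libraries. Exons of Cebpb overlap those of Peds1 on the opposite strand over 312 bases, and Peds1 held a mean of 1732 counts. Whether reads from these bases were counted, and for which gene, was not tested.

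Cebpa (chr7:34818718-34821353, plus strand) did not differ in any comparison beyond its spread. It had 1671, 1601, 1457 and 1448 normalised counts in vehicle, 1238, 1703, 1476 and 1359 in BLZ945 tdT+ and 1685, 1829, 1547 and 1241 in tdT- libraries. The 3 groups overlapped, and its log2 fold change of tdT- against vehicle cells was 0.03 (95% interval -0.31 to 0.37).

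Runx1 (chr16:92398354-92623037, minus strand) had 1055, 1859, 1338 and 2355 normalised counts in vehicle, 1237, 2059.9, 1047 and 1895 in BLZ945 tdT+ and 1959, 1976, 1715 and 1827 in tdT- libraries. The tdT- libraries were close to each other, with a coefficient of variation of 6.56%, inside the wide ranges of the tdT+ groups, where it was 34.8% in vehicle and 31.6% in BLZ945 tdT+ libraries. Its log2 fold change of tdT- against vehicle cells was 0.18 (95% interval -0.37 to 0.73).

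Spic (chr10:88510634-88520877, minus strand) was the least abundant of the 9 and, in both BLZ945 groups, the most variable, with a coefficient of variation of 76.9% in BLZ945 tdT+ and 72.6% in tdT- libraries, beside 25.9% in vehicle. Its normalised counts were 467, 565, 617 and 848 in vehicle, 213, 959, 473 and 201 in BLZ945 tdT+ and 605, 200, 365 and 81.3 in tdT- libraries. All 3 groups overlapped, although 3 of the 4 tdT- libraries lay below all vehicle libraries. The log2 fold change of tdT- against vehicle cells was -0.998 ± 0.60 (95% interval -2.18 to 0.19, adjusted p = 0.446 in DESeq2), so both -2.18 and values near 0 lie within its interval.

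Relatives of the 9 genes by family were examined as a list of 29, of which 25 were tested. In tdT- against BLZ945 tdT+ cells 3 rose and 0 fell (12%, beside 6.38% of all genes), with a median of -0.00. Among these were Irf5, an interferon regulatory factor of inflammatory macrophages (0.51 ± 0.13, adjusted p = 0.00197 in DESeq2, 0.0510 in edgeR), and Ets1, an ETS factor best known from lymphocytes (1.83 ± 0.50, adjusted p = 0.00700 in DESeq2, 0.0760 in edgeR). Ets1 had 435, 1074, 1066 and 773 normalised counts in tdT- and 509, 134, 172 and 129 in BLZ945 tdT+ libraries, which overlapped through mouse F1. Against vehicle 2 relatives rose (8%, beside 6.76% of all genes), Irf5 among them, with a median of 0.10 over the list. Between the tdT+ groups none of the 25 was called, by either tool, with a median of -0.04. Cebpe, a C/EBP factor of granulocyte maturation, was not tested, since it had 895 normalised counts in the tdT- library F2 and at most 0.901 in any other. That is the library with neutrophil markers.

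Of 26 further regulators of macrophage or monocyte identity, 23 were tested. In tdT- against BLZ945 tdT+ cells 2 rose and 2 fell (17.4%, beside 6.38% of all genes), with a median of 0.00. Sall1, a factor of microglia that is also in the marker list above, rose by 2.199 ± 0.39 (adjusted p = 1.53e-06 in DESeq2, 0.00724 in edgeR), and Id2, an inhibitor of E proteins, by 1.86 ± 0.29 (2.42e-08 and 0.00245). Rbpj, the effector of Notch signalling, fell by 0.63 ± 0.19 (adjusted p = 0.0209 in DESeq2, 0.0768 in edgeR), and Zbtb46, a factor of classical dendritic cells, fell with a log2 fold change of -1.64 ± 0.40 (0.00141 and 0.0364). Against vehicle 3 rose, namely Sall1, Id2 and Batf3, and Rbpj and Zbtb46 fell (21.7%, beside 6.76% of all genes), with a median of -0.17. Of these 5, edgeR called Sall1 and Id2 and not Batf3 (adjusted p = 0.171), Rbpj (0.0968) or Zbtb46 (0.101). Between the tdT+ groups none of the 23 was called by either tool, with a median of 0.05.

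Partners and inhibitors of the 9 factors were a list of 16 genes, 15 of them tested. In tdT- cells 1 fell and 0 rose, with medians of -0.06 against BLZ945 tdT+ and -0.04 against vehicle cells. This is 6.67% of the list, beside 6.38% and 6.76% of all genes, so the count was near the background. The gene was Hdac9, a class IIa histone deacetylase that binds and represses MEF2 proteins, which had 1122, 1217, 1183 and 1414 normalised counts in tdT- and 2014, 1997, 2751 and 2513 in BLZ945 tdT+ libraries. It fell by 0.91 ± 0.18 (adjusted p = 2.53e-05 in DESeq2, 0.00644 in edgeR), and by 0.54 ± 0.18 against vehicle (adjusted p = 0.0431 in DESeq2, 0.0849 in edgeR). Cbfb, the partner of RUNX1, had a log2 fold change of -0.07 against BLZ945 tdT+ cells. Between the tdT+ groups none of the 15 was called by either tool, with a median of -0.00.

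Known targets of the 9 factors were a list of 21 genes, all tested. In tdT- against BLZ945 tdT+ cells 2 rose and 4 fell (28.6%, beside 6.38% of all genes), with a median of -0.06. Cst3, the cystatin C gene that is abundant in microglia and macrophages, rose by 1.12 ± 0.16 (adjusted p = 1.09e-09 in DESeq2, 0.00316 in edgeR), and the receptor gene Csf3r by 0.90 ± 0.27 (0.0174 and 0.107). Csf3r had 3851 ± 1592 normalised counts (SD) in tdT- and 2069 ± 286 in BLZ945 tdT+ libraries, and its tdT- libraries overlapped with both tdT+ groups. The part of the library with neutrophil markers in this rise was not tested. Vcam1 and Slc40a1, an adhesion molecule and the iron exporter ferroportin, both linked to SPI-C in iron-recycling macrophages, fell with log2 fold changes of -1.83 ± 0.19 (adjusted p = 2.75e-18 in DESeq2, 4.13e-04 in edgeR) and -1.26 ± 0.19 (1.05e-08 and 0.00323). Hmox1, the haem oxygenase of the same programme, had -0.67 ± 0.28 and did not pass the test (adjusted p = 0.157 in DESeq2). The remaining genes that fell were Tlr4, the endotoxin receptor, by 0.94 ± 0.15 (adjusted p = 1.04e-07 in DESeq2, 0.00289 in edgeR), and Csf1r, the receptor that BLZ945 inhibits and a classical PU.1 target, by 0.26 ± 0.08 (0.0341 and 0.123).

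Csf1r had 143530.0, 120577, 153618 and 146627 normalised counts in tdT- libraries and 164298, 173777, 171790.0 and 167005 in BLZ945 tdT+ libraries, which did not overlap. Vcam1 was the only target called between the tdT+ groups by DESeq2 (4.76% of the list, beside 0.955% of all genes). The median over the list was 0.16 there, and Vcam1 rose by 0.83 ± 0.19 (adjusted p = 0.00391 in DESeq2, 0.270 in edgeR). It had 31114, 19466, 28153 and 21239.6 normalised counts in BLZ945 tdT+ libraries and 13051, 19149.5, 12061 and 11907 in vehicle libraries. Against vehicle, 6 targets rose in tdT- cells, among them Itgam, Csf3r, Cst3, Il18 and Cd14, and Tlr4, Vcam1 and Slc40a1 fell, with a median of 0.09. Of these 9 (42.9% of the list, beside 6.76% of all genes), edgeR called 5, namely Itgam, Cst3, Tlr4, Vcam1 and Slc40a1. The complement genes C1qa, C1qb and C1qc passed the test in none of the 3 comparisons, with log2 fold changes between -0.12 and 0.26.

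Finally, the genes whose level over the 12 libraries was most like that of each factor were listed among the 9309 genes whose mean reached 100 normalised counts, leaving out gene models named Gm or Rik, by Pearson's r of log2(normalised count + 1). The libraries share mice and groups, so r describes them only. For Maf these were Ednrb (r = 0.97), Tgfbi (0.96) and Pla2g2d (0.96), for Irf8 Ckb (0.95), Evi2a (0.91) and Cst3 (0.90), and for Spi1 Paip2 (0.94), Evl (0.93) and Cx3cr1 (0.92). Mef2c was most like Ank (0.96) and Mef2a most like Ly9 (0.87). Among the 9 factors themselves, r was 0.86 between Spi1 and Irf8, -0.83 between Maf and Irf8 and -0.65 between Maf and Spi1, and -0.40 between Mef2a and Mef2c.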

How the data were processed

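RNA of 12 libraries of sorted sdCAMs was sequenced after SMART-Seq amplification of about 500 pg of RNA, so counts are not independent molecules. The deposited values are raw counts per gene name, which the authors made with STAR 2.7.11a and featureCounts 2.0.6 on exons of GENCODE M33 (GRCm39) without strand and without multi-mapping reads, per the file headers and the submitters' processing notes. Groups came from the labels. A vehicle column carried the label M1 with the library number of M2 and was assigned by that number, and 0 columns were left unused. A gene was dropped when 9 or more of its 12 counts were under 10. DESeq2 1.42.0 (Wald test, both directions, 1 fit of all 12 libraries, Benjamini-Hochberg adjustment over all genes) gave calls at an adjusted p of at most 0.05, with apeglm 1.24.0 shrinkage for DEGs. Printed fold changes are unshrunken. The edgeR 4.0.16 test was the alternative. The 9 factors are all described, and lists and markers were chosen by function. Some genes of the lists are not reported here. The 9 genes and the lists were chosen with earlier results of these data known, so the shares called among them are a description only. RPKM used the deposited exon lengths. Same-labelled BLZ945 libraries come from 1 mouse, and their deviations from the group means correlated by -0.0046 to 0.035. The vehicle mice are other animals. Replicate pairs differed by more than sampling noise, with a chi-square per degree of freedom of at least 48.4.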

Additional observations from a re-analysis of the deposited data

Results flagged for a closer look

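Among the 27 combinations of factor and group, 1 library stood apart by Dixon's rule, where chance gives 1.35. This was Cebpb in BLZ945 tdT+ cells of mouse F2, at 2301 normalised counts below the next library at 3546, a gap of 0.832 of the range of the group.

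The change of Irf8 differed between mice labelled F and M in the interaction term of DESeq2, with 2 mice of each letter in a group. Xist was at 0 in every library labelled M and at 863 normalised counts or more in every library labelled F. Ddx3y, which is Y-linked, was at 0 in every F library and at 767 or more in every M library, so the letters go with female and male mice. Between tdT- and tdT+ cells of BLZ945 mice the log2 fold change was larger in M by 0.85 (adjusted p = 1.31e-04 in DESeq2, 0.409 in edgeR). Between BLZ945 tdT+ and vehicle cells the M minus F difference was -0.61 (adjusted p = 0.0492 in DESeq2, not called in edgeR). Both terms share the BLZ945 tdT+ libraries, in which Irf8 had 7547 and 9017 normalised counts in F1 and F2 and 6042 and 6093 in M1 and M2. The edgeR interaction called 0 of all genes tested in either comparison, whereas DESeq2 called 369 and 73. Before adjustment, 984 and 449 genes had an edgeR p under 0.05.

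Mef2c differed in direction by letter within the BLZ945 mice. The tdT- minus tdT+ difference on the log2 scale was 0.13 in F1 and 0.11 in F2, and -0.048 in M1 and -0.36 in M2. This split by letter was seen in the values and not tested as such, and the DESeq2 interaction term of Mef2c had an adjusted p of 0.660.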

How the results depend on the processing

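Over 14 alternatives for each of 9 factors in 3 comparisons, 341 of 378 values kept their direction and side of the threshold, 16 lost a call, 7 gained one and 14, none of them called, reversed. Maf kept its call in all 14 alternatives in both comparisons of tdT- cells. In tdT- against BLZ945 tdT+ cells, edgeR and the replicate block (same mouse) each called 1 factor instead of 3, and leaving out 1 library called 1 to 3. In BLZ945 tdT+ against vehicle cells, 1 factor (Mef2a) instead of 0 was called without a filter (DESeq2 adjusted p = 0.0428), with only the 8 libraries compared (0.0160), with the letter F or M as covariate (0.0221) and with the replicate block (2.59e-04), which joins different animals there, and 0 to 1 with 1 library left out. In tdT- against vehicle cells edgeR called 1 instead of 2, and leaving out 1 library called 1 to 2. Mef2a was also called there with the replicate block (0.0280) and without vehicle F2 (log2 fold change 0.53, DESeq2 adjusted p = 0.0328), where Irf8 lost its call (0.102).

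Genes called by edgeR numbered 377, 9 and 446 in the 3 comparisons, beside 875, 131 and 928 in DESeq2. In BLZ945 tdT+ against vehicle cells there were 256 without a filter, 367 with the block, 325 with 8 libraries and 129 to 213 with 1 left out. DEGs without shrinkage numbered 487, 67 and 544, beside 309, 23 and 350, and in the second comparison 7 in edgeR, 45 without a filter, 57 with the block, 55 with 8 libraries and 17 to 34 with 1 left out.

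Reversals with 1 library left out ranged, in tdT- against BLZ945 tdT+ cells, from -0.18 to 0.075 (0.0035 without tdT- F2) for Mef2c and from -1.10 to 0.080 for Spic. In BLZ945 tdT+ against vehicle cells the range was -0.20 to 0.0092 for Irf8 (0.0019 without tdT+ M2), -0.23 to 0.02 for Mef2c and -0.25 to 0.14 for Runx1 (0.01 without tdT+ F1, 0.07 without tdT+ M1). In tdT- against vehicle cells Cebpa ranged from -0.055 to 0.12 (-0.0065 without vehicle M2, -0.0055 without tdT- F1) and was -0.0018 in edgeR and with TMM factors in DESeq2. The cause was not tested. With 4 libraries a group, the intervals of Spic and Runx1 were the widest of the 9.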

Other observations

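The 5 monocyte markers had summed normalised counts of 1549 to 3885 in vehicle, 901 to 1981 in BLZ945 tdT+ (Ly6c2 and Chil3 at 0) and 3076 to 51211 in tdT- libraries, of which F2 was the highest, so that vehicle and tdT- libraries overlapped. Myb, a factor of haematopoietic progenitors, had 500 normalised counts in the tdT- library F2, 8.29 in the BLZ945 tdT+ library of the same mouse and 0 in the other 10 libraries. The part of monocytes or progenitors in the levels of the 9 factors was not tested.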
